A study of Mus musculus with 8 samples.

Results

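The comparison is between BV2 cells grown with glioma cells and BV2 cells grown alone, both in hypoxia, and it rests on 4 of the 8 ATAC-seq libraries of the series. BV2 is an immortalised mouse microglial line and GL261 a mouse glioma line. BV2 cells were seeded onto GL261 cells at 1 part to 2 (co-culture) or cultured without them (monoculture), and after 24 h both were held below 0.1% oxygen for 16 h. All 4 libraries share that hypoxia, fixation with 1% formaldehyde before the cells met air again, and a sort for CD45, a leukocyte surface protein, or GFP. The labels do not say which of the markers was used for which culture. Tn5 was applied to 50000 sorted cells, with 2 biological replicates per culture. The 4 normoxic libraries (21% oxygen, otherwise the same cultures) took no part in choosing regions and serve below as a separate readout. Peaks of the 4 hypoxic lists on chromosomes 1 to 19 and X were merged where they overlapped by 1 bp. This gave 38123 regions, against 40770 over all 8 lists. A region was called gained when both co-culture lists and neither monoculture list had a peak in it, and lost in the reverse case. By this rule 2392 regions (6.27%) were gained and 1578 (4.14%) were lost, and 14410 had a peak in all 4 lists.

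ATAC-seq marks DNA that the Tn5 transposase can reach, which is mostly active promoters and enhancers. Promoters of widely used genes are open in nearly every cell type, whereas enhancers inside and between genes are opened by the factors of one cell type or one signal. Microglia are the resident macrophages of the brain. In gliomas they are drawn into the tumor, where they are known to take up an altered, often immunosuppressive state, and tumor cores are often short of oxygen.

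The DNA just upstream of gene starts gives a view of what was gained and lost, and the windows below are the first 3 gained and first 3 lost, by rank, that overlap their region, lie in no annotated gene and hold no unknown base. Regions of higher rank whose upstream stretch lies in an annotated gene, such as that of Top2a, were passed over. Each is the 250 bases before a start site, printed 5′ to 3′ on the strand of the gene, from the RefSeq promoter table (build GRCm38.p6). Capitals mark matches, on either strand, to any of 12 short motifs: the AP-1 motif TGANTCA, the hypoxia response element ACGTG, the ETS motif GGAAGT bound by PU.1, the cyclic AMP response element TGACGTCA, the composite ATF4 element TGATGNAAT, the E-box CACGTG, the CCAAT box, the SP1 motif GGGCGG, the TEAD motif GGAATG, and the longer IRF, NF-kappaB and MARE motifs. An E-box holds the letters of a hypoxia response element, and a MARE those of AP-1, so these overlap. The gained windows belong to Pmm1, which interconverts mannose phosphates (chr15:81960931-81961180, minus strand), Os9, a lectin that hands misfolded proteins of the endoplasmic reticulum to degradation (chr10:127121161-127121410, minus strand), and Plekho2 (chr9:65580088-65580337, minus strand). The lost windows belong to Basp1, a membrane-bound signaling protein (chr15:25413765-25414014, minus strand), Commd9, a subunit of an endosomal sorting complex (chr2:101886012-101886261, plus strand), and Ammecr1 (chrX:142966727-142966976, minus strand).
Pmm1, gained: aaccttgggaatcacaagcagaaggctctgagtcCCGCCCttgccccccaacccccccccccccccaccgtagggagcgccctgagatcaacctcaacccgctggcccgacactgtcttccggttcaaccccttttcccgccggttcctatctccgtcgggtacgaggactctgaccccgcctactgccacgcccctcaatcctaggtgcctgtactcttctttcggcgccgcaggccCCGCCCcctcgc
Os9, gained: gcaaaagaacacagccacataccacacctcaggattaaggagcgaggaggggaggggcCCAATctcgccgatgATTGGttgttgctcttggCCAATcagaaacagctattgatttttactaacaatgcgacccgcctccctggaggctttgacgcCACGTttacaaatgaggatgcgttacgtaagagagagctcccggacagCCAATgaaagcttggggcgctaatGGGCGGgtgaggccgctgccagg
Plekho2, gained: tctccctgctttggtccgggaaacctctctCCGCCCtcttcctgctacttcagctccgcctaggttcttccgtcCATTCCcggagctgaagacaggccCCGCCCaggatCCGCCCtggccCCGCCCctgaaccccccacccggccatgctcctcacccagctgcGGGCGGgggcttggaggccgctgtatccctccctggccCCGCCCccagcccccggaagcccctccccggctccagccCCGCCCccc
Basp1, lost: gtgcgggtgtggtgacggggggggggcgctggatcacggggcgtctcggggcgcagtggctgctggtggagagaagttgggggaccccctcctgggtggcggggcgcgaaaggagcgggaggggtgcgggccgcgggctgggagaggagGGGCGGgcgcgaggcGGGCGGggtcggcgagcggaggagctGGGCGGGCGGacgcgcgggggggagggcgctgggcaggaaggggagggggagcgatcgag
Commd9, lost: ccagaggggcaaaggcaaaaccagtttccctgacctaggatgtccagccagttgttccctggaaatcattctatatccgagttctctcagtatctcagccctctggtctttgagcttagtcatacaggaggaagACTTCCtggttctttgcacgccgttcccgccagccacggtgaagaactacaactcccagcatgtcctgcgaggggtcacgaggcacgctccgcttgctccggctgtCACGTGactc
Ammecr1, lost: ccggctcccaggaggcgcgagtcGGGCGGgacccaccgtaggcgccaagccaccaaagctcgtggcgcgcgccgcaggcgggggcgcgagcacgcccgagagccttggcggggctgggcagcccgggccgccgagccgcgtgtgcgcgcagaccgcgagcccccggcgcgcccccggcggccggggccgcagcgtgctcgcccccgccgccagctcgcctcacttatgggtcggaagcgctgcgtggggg
The Pmm1 window held 2 SP1 matches. The Os9 window held 4 CCAAT boxes, 1 SP1 match and 1 hypoxia response element, and the Plekho2 window 7 SP1 matches and 1 TEAD match. Among the lost windows, Basp1 had 4 SP1 matches, Commd9 had an E-box, whose letters hold the hypoxia response element on either strand, and an ETS match, and Ammecr1 had 1 SP1 match. The gained and lost windows differ in rank. The gained regions stood at the 85.3 to 93.1 percentile of their lists at the least, and the lost ones at the 20.1 to 21.5 percentile. A match is a description of the letters and not a bound site, and SP1 matches were found in 46.7% of all 21045 promoter windows of the table.

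A percentile here is the rank of a region's best peak by the deposited −log10 p within its own list, from 0 to 100. Strength is compared across lists by this rank, and fragments at the summit and background coverage, both worked out from deposited values, are given as a description. The 4 hypoxic lists held 21625 to 29647 peaks, and the background coverage worked out from the deposited fold and −log10 p was 1.17 to 1.45 fragments per position, lowest in co-culture replicate 2. The mean number of peaks was 25636 ± 5672 in co-culture and 25349 ± 1392 in monoculture (SD, n = 2 each). The difference of 287 was far below that spread (two-sided exact permutation test, p = 1, smallest possible p 0.333), and this test of 2 libraries against 2 cannot pass the usual threshold. Counts of regions carry no test.

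The label of the cells was checked against 27 microglia and macrophage genes. Of these, 24 had a region in the gene or within 10 kb of it in at least 1 hypoxic list. A region with a peak in all 4 lists was found for 17, among them Csf1r, Cx3cr1, Aif1, Ptprc (which encodes CD45), Trem2 and Runx1. As shares of the list these counts are 88.9% and 63.0%, against 68.7% and 49.4% of all protein-coding genes. The microglial genes Tmem119, C1qa and Sall1 had no region. The number with a peak was 23 and 18 in the co-culture libraries and 23 and 22 in the monoculture libraries. Of 25 glioma, glial and neural genes, 15 and 11 had a peak in the co-culture libraries against 4 and 7 in monoculture. As shares of the list these are 60% and 44% against 16% and 28%, and over all protein-coding genes the shares with a peak were 64.9% and 60.9% against 57.7% and 58.6%. The cultures did not overlap in either measure, and the gap was wider for the glial genes. In normoxia the glial counts were 13 and 8 against 2 and 2. The normoxic monoculture lists are short (13326 and 9903 peaks, against 21780 and 21816 in normoxic co-culture), and there 42.7% and 35.6% of all protein-coding genes had a peak, against 59.3% and 60.4%. Olig2, Egfr, Fabp7, Sox9 and Sox10 were among 9 of the 25 with no region in any hypoxic list. A sort can leave some GL261 cells in a co-culture sample. In bulk libraries, a few cells of another type and a small change in every cell cannot be told apart, and the part of the glial genes' difference in the results below was not tested.

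Gained and lost regions lay in different kinds of places. Of the gained regions, 772 (32.3%, 95% Wilson interval 30.4% to 34.2%, counting error only) were at a gene end, here the 1 kb around either end of any protein-coding gene. Of the lost regions, 98 did (6.21%, 5.12% to 7.51%). The value was 25.3% over all regions and 40.9% over the shared ones. Lost regions lay instead inside genes away from the ends (923, 58.5%) or outside genes (557, 35.3%), against 44.4% and 23.4% of gained regions. With start sites alone, which the promoter table gives for 17274 of 21631 protein-coding genes, the shares were 28.2% of gained and 3.23% of lost regions. Within 2.5 kb of a gene end they were 37.1% and 12.9%, a narrower contrast. Where every library with a peak placed the region at percentile 50 or above of its list, 185 of 449 gained regions (41.2%) and 8 of 304 lost regions (2.63%) lay at a gene end. Of the shared regions that met the same condition, 3242 of 6747 (48.05%) did, so the share was also larger there than over all shared regions.

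**Figure D1:**
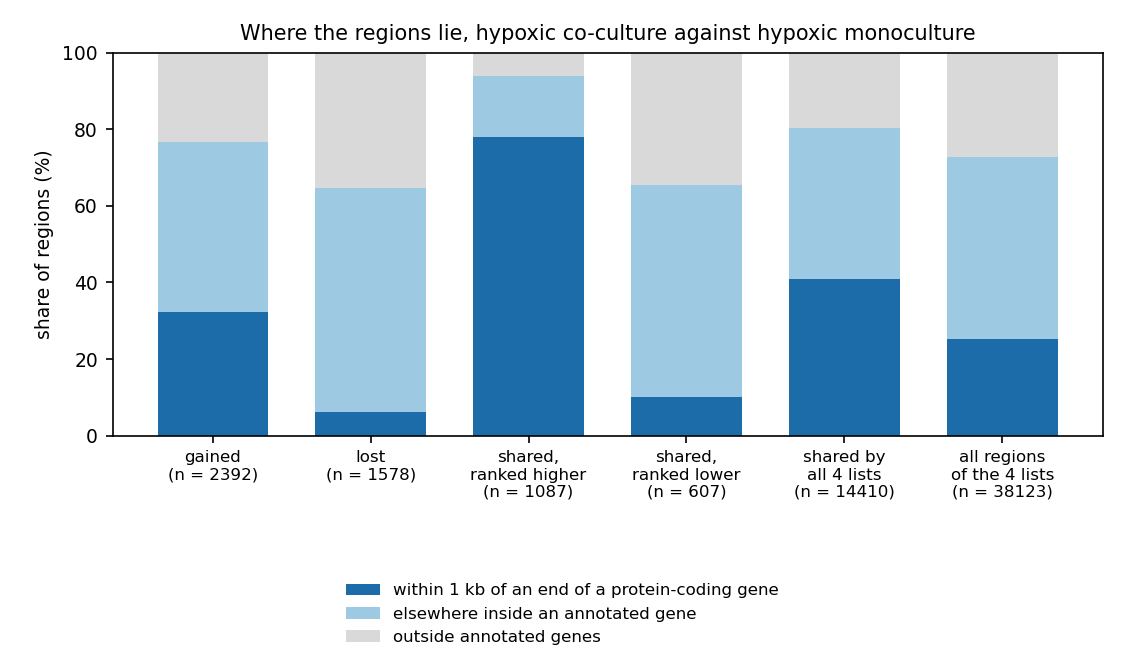
Share of regions (%) at a gene end, elsewhere inside a gene and outside genes, for 6 sets of regions. Gene ends make up 32.3% of gained and 6.21% of lost regions, and 77.9% of shared regions ranked higher and 10.05% of those ranked lower in co-culture.

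The libraries themselves differed in the same measure. Of all peaks, 29.5% and 36.7% lay at a gene end in co-culture and 29.3% and 27.4% in monoculture. Both co-culture values were above both monoculture values, but replicate 1 of co-culture was close to them. The means were 33.1% ± 5.09 and 28.4% ± 1.33 (SD, n = 2 each), a difference of 4.78 percentage points, below the spread of the co-culture pair (two-sided exact permutation test, p = 0.333). Co-culture replicate 2 had the fewest peaks and the largest share at gene ends, and without it 7050 regions were gained and 2052 lost, with 19.8% and 8.38% at a gene end. That 19.8% was below the 25.3% over all regions of the 4 lists, and 35.3% of shared regions lay there in that setting. An excess of gained over all regions at gene ends was thus not seen without this library. Without co-culture replicate 1 the counts were 3875 gained and 4752 lost, with 26.6% and 8.63% at a gene end. Gained regions made up 60.3% of the changed ones, and 40.7% without monoculture replicate 1, 49.3% without monoculture replicate 2, 44.9% without co-culture replicate 1 and 77.5% without co-culture replicate 2, so which direction had more regions changed with the library left out.

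Regions with a peak called in all 4 lists can be compared by rank, and showed the same division. Ranks agreed within a culture more than between cultures: Spearman's rho across the 14410 shared regions was 0.859 for the co-culture pair and 0.874 for the monoculture pair, and 0.579 to 0.736 for the 4 pairs across cultures. The shared regions of one library all come from that library, so these values describe the lists. At the 5889 shared regions at a gene end the median percentile was 80.4 and 79.0 in co-culture and 67.2 and 65.9 in monoculture. At the 5685 regions elsewhere inside genes it was 66.5 and 52.5 in co-culture and 64.9 and 67.3 in monoculture. At the 2836 regions outside genes it was 64.1 and 50.8 against 64.7 and 68.0. Gene-end regions thus stood higher in both co-culture libraries than in either monoculture library, while the other regions were clearly lower in co-culture replicate 2 and close to monoculture in replicate 1.

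Ranking the shared regions among themselves, which takes out the differing length of the lists, separated the cultures at all 3 kinds of place. Gene-end regions then had medians of 63.5 and 70.2 in co-culture and 51.8 and 48.8 in monoculture. Regions inside genes had 43.03 and 38.4 against 48.9 and 50.4, and regions outside genes 40.1 and 36.8 against 48.8 and 51.3. The mean rank was higher in co-culture at 71.7% of gene-end regions, 33.2% of those inside genes and 29.1% of those outside. Ranks are relative, so a rise of one kind of region within a list lowers the others by construction.

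**Figure D2:**
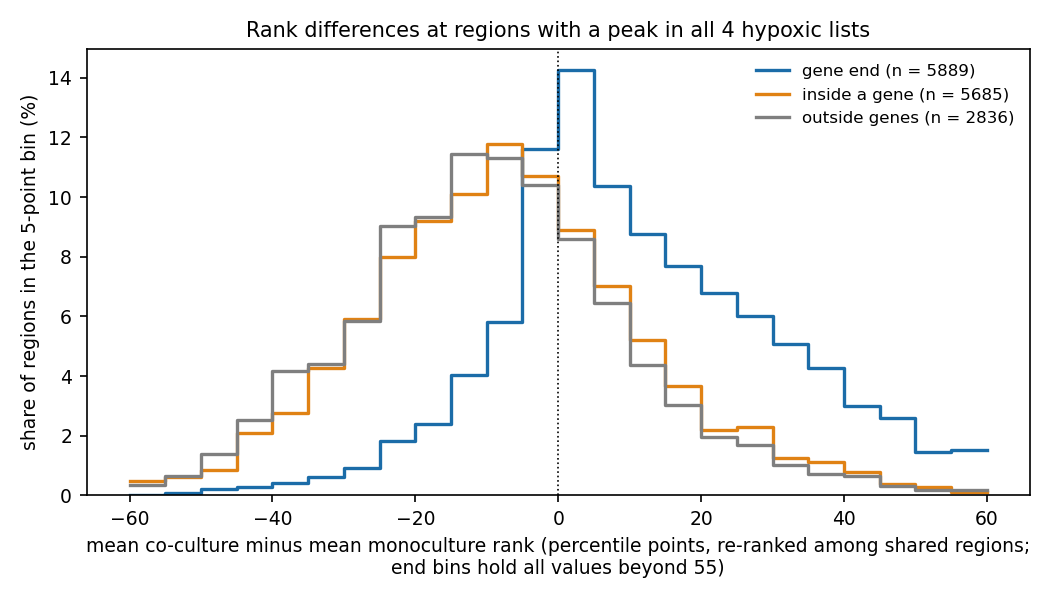
Distribution of the rank difference (mean of the 2 co-culture libraries minus mean of the 2 monoculture libraries, percentile points, ranked among the 14410 shared regions) for regions at gene ends, inside genes and outside genes, as the share of regions (%) in each 5-point bin. The median is 8.60 at gene ends, −7.65 inside genes and −9.72 outside genes.

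A shared region was called higher in co-culture when its lower co-culture percentile exceeded its higher monoculture percentile by at least 20 points. This was met at 1087 regions (7.54% of the shared ones), and the reverse at 607 (4.21%). Without co-culture replicate 1 the counts were 1522 and 2456, so which direction had more regions turned with that library. They were 1971 and 1296 without co-culture replicate 2, 2200 and 1362 without monoculture replicate 1, and 1977 and 926 without monoculture replicate 2. Of the higher regions 847 (77.9%) lay at a gene end, and of the lower ones 61 (10.05%). At the higher regions the median number of fragments at the summit was 50 and 52 in co-culture and 21 and 22 in monoculture. At the lower regions it was 26 and 20 in co-culture and 41 and 48 in monoculture. When ranked among the shared regions, 1206 were higher, 78.03% of them at a gene end, and 1039 were lower, 9.43% of them at a gene end, with 897 and 550 called both ways.

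Promoter windows that the regions overlapped differed in the same way. Regions gained overlapped 754 windows of 300 bp (250 before the start site and 50 after), regions lost 36, higher regions 973 and lower regions 43. Median GC content was 61.3% in gained, 62.7% in higher, 56.5% in lost and 53.3% in lower windows. The median number of CpG dinucleotides was 22 and 24 against 10.5 and 6, with 22 in all 9386 windows that any region overlapped. SP1 matches were found in 64.6% of gained and 72.5% of higher windows, against 38.9% of lost and 37.2% of lower ones and 66.8% of all overlapped ones. AP-1 matches were found in 11 of the 43 lower windows (25.6%), against 3.70% of higher, 4.11% of gained, 5.56% of lost and 4.78% of all overlapped windows. Hypoxia response elements were found in 25.7% of gained, 27.8% of lost, 29.9% of higher, 16.3% of lower and 27.7% of all overlapped windows. The lost and lower sets are small, the 43 lower windows belong to 37 genes, and AP-1 is 1 of 12 motifs searched. Other motifs departed there too. TEAD matches were in 22.2% of lost windows, against 11.1% of all overlapped ones. IRF matches were in 9.30% of lower windows and CCAAT boxes in 25.6%, against 3.12% and 41.1%. Most lost regions lie where no window reaches.

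Of the 10 highest-ranked gained regions, 5 covered a start site of the promoter table, 2 lay at a gene end without a listed start and 3 lay inside a gene. The 2 are those of Rpl3 and Garem1. The table lists no start site on chromosome 18, where Garem1 lies, and does not cover every gene, so either may still be a start. The region of highest rank covered the start of Pmm1 (chr15:81960242-81961121), shown above, at percentiles 93.3 and 93.1 in the co-culture libraries. Normoxic co-culture also had it, at 64.3 and 72.2, and it was called in no monoculture list of either oxygen level. The region at the start of Os9 (chr10:127121095-127121596) stood at 91.9 and 93.3 and had a normoxic peak in co-culture replicate 2, at 69.5.

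A region over the start of Spcs2, a subunit of the signal peptidase, and Xrra1 (chr7:99858688-99859328) stood at 90.6 and 93.1. One at an end of Rpl3, a protein of the large ribosomal subunit (chr15:80083280-80083984), stood at 89.2 and 91.5, and at 35.7 and 22.2 in normoxic co-culture. The Os9 and Spcs2 products both act in the endoplasmic reticulum. Inside Reln, which encodes a secreted matrix protein that guides migrating neurons, chr5:22013084-22013602 stood at 90.9 and 88.7, and at 45.5 and 31.7 in normoxic co-culture. Inside Grm8, a glutamate receptor gene, chr6:27617535-27618183 stood at 88.4 and 88.4, and at 88.8 and 67.7 in normoxic co-culture.

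Further gained regions lay inside Myo5b, a vesicle motor (chr18:74539285-74539877, 91.8 and 88.1), at an end of Garem1, an adaptor of growth factor signaling (chr18:21299894-21300688, 95.4 and 87.7), and at the start of Dmwd (chr7:19075938-19076372, 87.6 and 87.4). The tenth covered the start of Top2a, the DNA topoisomerase of dividing cells (chr11:99024001-99024928, 86.9 and 87.0). Top2a was also called in 3 normoxic lists, one of them monoculture replicate 1 (69.0), while Dmwd had no normoxic peak at all. Of the 10 regions, 6 were called in the 2 normoxic co-culture lists and not in normoxic monoculture.

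The highest-ranked lost regions were all away from the ends of protein-coding genes. The first lay outside genes, 6284 bp from Abhd17c, an enzyme that removes palmitate from proteins (chr7:84102663-84103072), at percentiles 95.5 and 95.6 in the monoculture libraries. Another lay 26713 bp from Loxl4, a lysyl oxidase that crosslinks collagen (chr19:42639519-42639963), at 93.7 and 94.0, and one lay inside Slc45a4, a solute carrier gene (chr15:73604443-73605122), at 96.1 and 92.8. The Loxl4 and Slc45a4 regions had a peak in the 2 hypoxic monoculture libraries and in no other of the 8.

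The region at Ighv1-47 in the immunoglobulin heavy chain locus (chr12:114990748-114991472) stood at 94.8 and 96.8 in hypoxic monoculture and was called in all 4 normoxic lists, at 90.4, 74.6, 95.9 and 82.4. It was therefore absent from the hypoxic co-culture pair alone. The region inside Tlcd4 (chr3:121242910-121243320), at 91.4 and 90.1, was called in both normoxic co-culture lists (84.1 and 89.9) and in neither normoxic monoculture list. A region inside Stap1, an adaptor protein of blood cells (chr5:86085037-86085427), stood at 90.2 and 89.4, and one inside Pcm1, which organises centriolar satellites (chr8:41298135-41298840), at 88.4 and 90.3. The other 3 lay in Gm34462, Gm52523 and Gm18666, at 88.3 to 94.3.

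**Figure D3:**
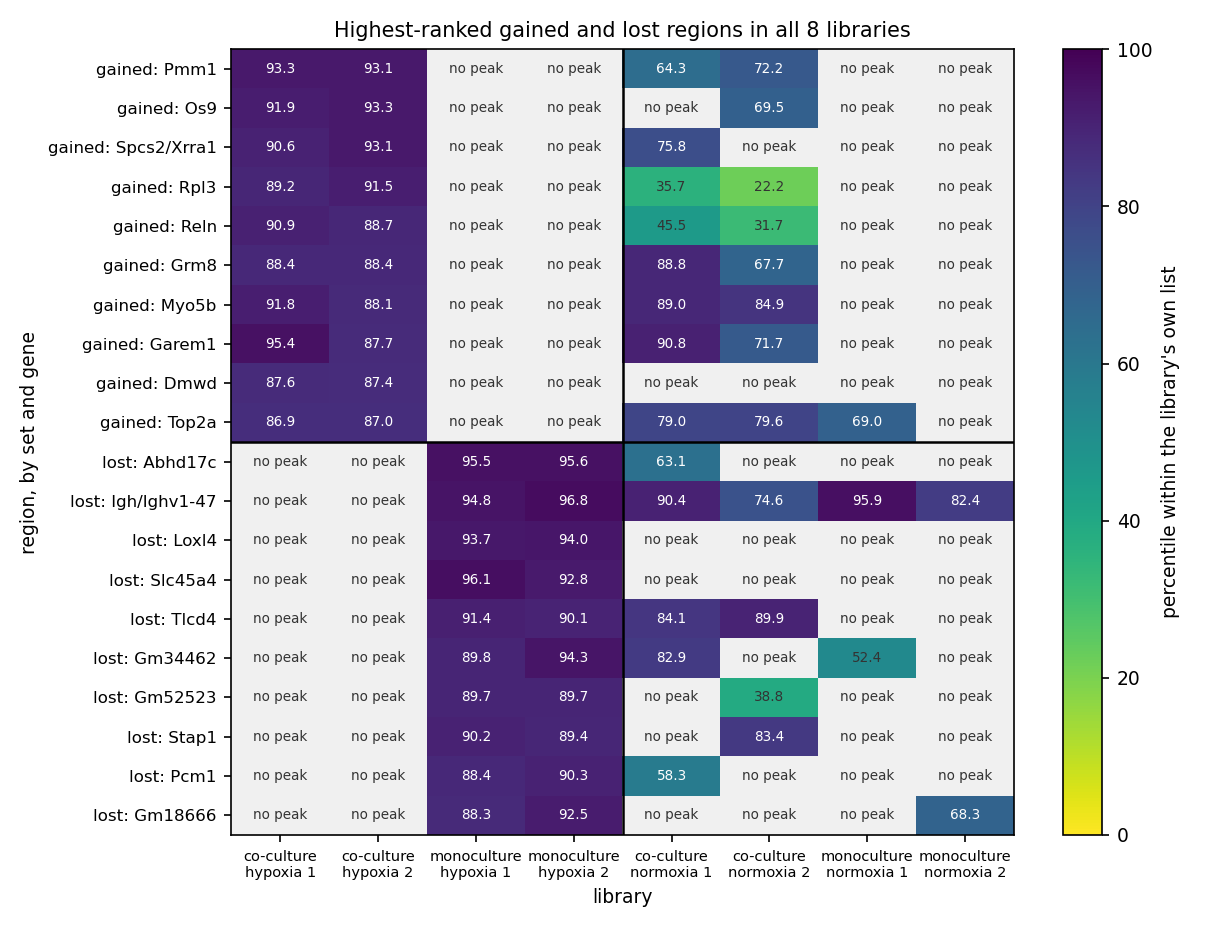
Percentile within each library's own list of the 10 highest-ranked gained and 10 highest-ranked lost regions, by gene, in all 8 libraries, with grey cells where no peak was called. Gained regions stand at 86.9 to 95.4 in hypoxic co-culture and lost regions at 88.3 to 96.8 in hypoxic monoculture, and the normoxic columns, which the rule did not use, hold 16 peaks in co-culture and 1 in monoculture for gained regions, and 9 and 4 for lost regions.

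Among the shared regions, the widest gaps upward in co-culture were led by a region inside Camk2b. That region, in the gene of a calcium-dependent kinase subunit (chr11:6005933-6006937), stood at 88.2 and 84.2 in co-culture and at 12.6 and 6.35 in monoculture. One at an end of Kcnn1, a calcium-activated potassium channel (chr8:70865281-70866155), stood at 90.0 and 94.1 against 21.2 and 27.3.

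The start of Wnk1, a kinase that controls ion transport (chr6:120038167-120039175), stood at 79.3 and 86.1 against 12.7 and 20.3, and the pseudogene Gm7434 (chr8:4369871-4370419) at 88.6 and 75.3 against 10.2 and 3.42. The Camk2b region was also high in normoxic co-culture (92.6 and 85.7) and had no peak in normoxic monoculture. Kcnn1 stood lower there, at 30.3 and 16.3 in normoxic co-culture against 4.36 in the 1 normoxic monoculture list with a peak. Wnk1 did not separate the normoxic cultures, with 27.7 and 57.2 in co-culture and 46.8 in the 1 monoculture list with a peak. With lists of equal number, 8 of the 10 shared regions with the widest gaps were not called. The Camk2b region was not called under 3 alternatives, while its rank difference, 76.8 points, was 79.9 to 83.3 under them.

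The widest gaps downward were all away from gene ends, near Pde4b and Fpr1 and inside Itprip, Sh3kbp1 and the heavy chain locus. A region 4213 bp from Fpr1, the formyl peptide receptor of phagocytes (chr17:17871050-17872258), stood at 11.2 and 5.77 in co-culture and at 73.1 and 76.4 in monoculture. One 49332 bp from Pde4b, a phosphodiesterase that breaks down cyclic AMP in inflammatory cells (chr4:102656607-102657634), stood at 19.9 and 19.8 against 85.3 and 86.0. Between the higher co-culture and the lower monoculture value lay 61.8 points at Fpr1 and 65.4 at Pde4b.

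Inside Itprip, a modulator of the inositol trisphosphate receptor (chr19:47910223-47910921), the values were 13.3 and 27.1 against 84.1 and 81.9. Inside Sh3kbp1, an adaptor of receptor uptake (chrX:159638532-159639054), they were 26.6 and 18.9 against 81.8 and 80.6, while both normoxic co-culture libraries stood at 80.4 and 77.0. At Ighv8-10 in the heavy chain locus (chr12:115518732-115519792) they were 21.2 and 27.6 against 83.7 and 92.1. The Sh3kbp1 region was thus low in the hypoxic co-culture libraries and high in every other library that had a peak there, the lowest being 65.5.

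Some genes held several changed regions. Pde4b had 5 lost and 3 lower regions and no gained or higher one, among 23 regions in the gene or within 10 kb. Dglucy, Cask, a scaffold protein of synapses, Fgf13 and Lrmda had 4 lost regions each. Ppm1h, a protein phosphatase gene, had 5 gained and 2 lost regions among 21, and 3 of its gained regions had the same pattern in normoxia. Rad51b, a DNA repair gene, also had 5 gained regions, and Dlgap1, a scaffold of synapses, Tom1l2 and Bahcc1 had 4. Rad51b, Dlgap1 and Tom1l2 each had 1 lost region as well, and Bahcc1 had none. Most of these genes are long (Ppm1h spans 268.4 kb and Pde4b 519.9 kb), and long genes can hold more regions.

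The normoxic libraries, which the rule did not use, had the same pattern at a larger share of gained regions, and of lost regions, than of all regions. Of the 2392 gained regions, 808 (33.8%) were called in both co-culture lists and neither monoculture list of normoxia, against 12.6% of all regions, and none had the reverse. Of the 1578 lost regions, 22 (1.39%) were called in both monoculture lists and neither co-culture list of normoxia, against 0.236% of all regions, and 111 (7.03%) had the reverse. The share of gained regions fell to 16.1% without hypoxic co-culture replicate 2, and that of lost regions to 0.694% without co-culture replicate 1 and 0.890% without monoculture replicate 1. No normoxic peak was called at 33.7% of gained and 53.2% of lost regions. The part of the short normoxic monoculture lists in these shares was not tested. The share called in both co-culture lists of normoxia was 38.3% of gained, 15.6% of lost and 42.8% of all regions.

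Ranks were also compared at shared regions called in all 8 libraries. Of 256 such higher regions, 187 (73.05%) had both normoxic co-culture percentiles above both normoxic monoculture percentiles and 1 had the reverse. Of 295 lower regions, 42 (14.2%) ranked lower in normoxic co-culture, and 64 (21.7%) ranked higher. Over all 6393 shared regions of this kind the values were 55.2% higher and 4.29% lower. The median normoxic rank difference, co-culture minus monoculture, was 25.7 points at higher and 2.17 at lower regions, against 10.6 over all of them. Relative to that background both sets lay on the side of their hypoxic call, and the difference between the oxygen levels was not tested. The lost regions with the pattern of both oxygen levels were led by Ighv8-4 (chr12:115023625-115024066, 86.6 and 90.1 in hypoxic monoculture), a region 6967 bp from Gm5565 (chr5:146150479-146150831, 66.8 and 63.5) and one 34435 bp from Isoc1 (chr18:58714005-58714493, 69.2 and 62.5).

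The 12 gene lists, including the cell type markers above, hold 291 genes found in the annotation. Of these, 52 (17.9%) had a gained region in the gene or within 10 kb, against 10.6% of all protein-coding genes and 15.5% of the 14855 that have any region there. A lost region was found for 22 (7.56%), against 5.12% and 7.46%. A higher region was found for 40 (13.7%), against 7.91% and 11.5%, and a lower one for 10 (3.44%), against 2.03% and 2.96%. The list genes as a whole thus lay near the values of other genes that have any open region. The single lists are described by their counts, to be read beside these shares, with no test.

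**Figure D4:**
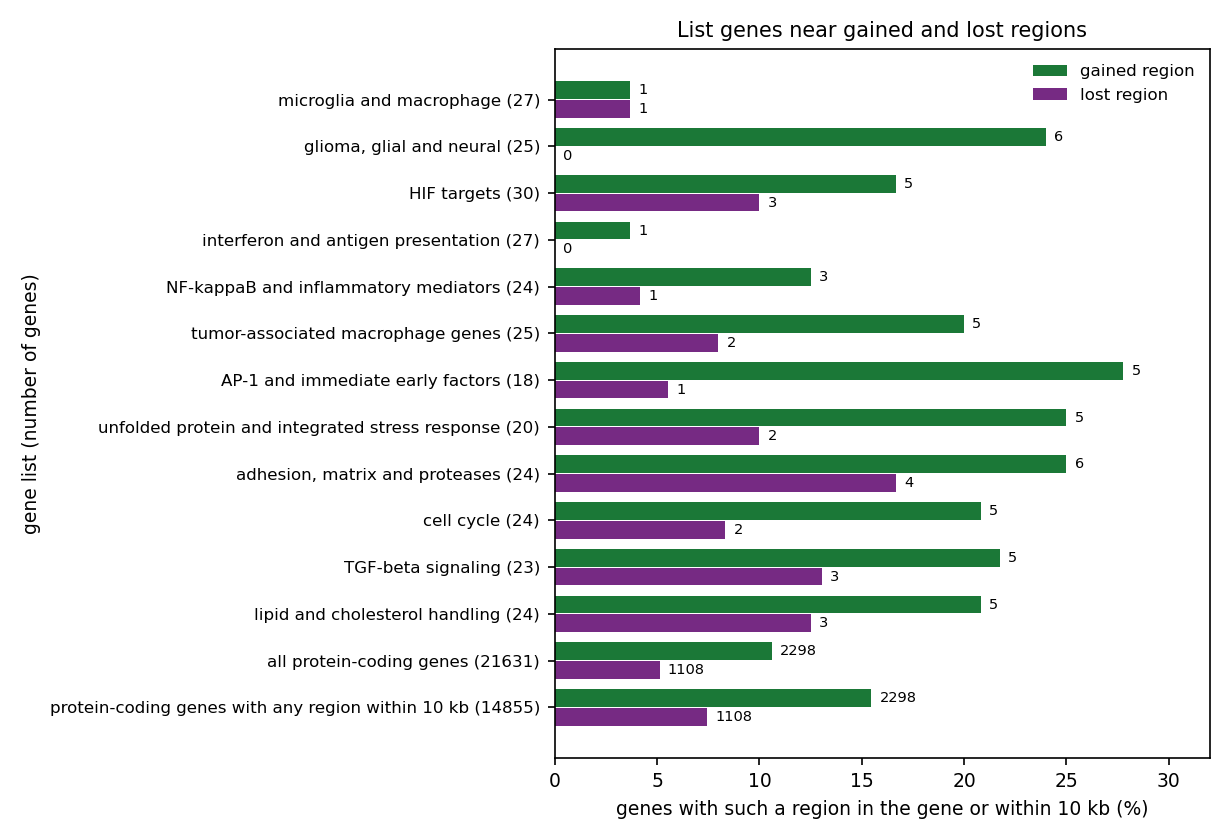
Share (%) of the genes of each list with a gained (green) or lost (purple) region in the gene or within 10 kb, with the number of genes beside each bar and all protein-coding genes, and those with any region, at the bottom. Gained exceeds lost in 11 of the 12 lists and equals it in the microglia list, as gained (10.6%) exceeds lost (5.12%) over all protein-coding genes.

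Cell type markers came first. Of the 27 microglia and macrophage genes, Mef2c had a gained region (chr13:83588142-83588696, 13.6 and 17.6) and P2ry12, a purine receptor that marks resting microglia, a lost one 1661 bp from its start, inside Med12l as well (chr3:59260320-59261324, 56.3 and 80.3 in hypoxic monoculture). The P2ry12 region was called in all 4 normoxic lists, at 81.1, 51.9, 85.8 and 78.6, so it was missing from the hypoxic co-culture pair alone. Both P2ry12 and Mef2c also had another region, in the gene or within 10 kb, with a peak in all 4 hypoxic lists. Of the glioma, glial and neural genes, 6 of 25 (24.0%) had a gained region and none a lost one. Over all protein-coding genes 10.6% had a gained and 5.12% a lost region. The region at the start of Sox2, a stem cell factor (chr3:34649340-34650124), stood at 47.2 and 38.5, and one 9930 bp from Nes, an intermediate filament of neural progenitors, inside the non-coding Gm32518 (chr3:87960747-87961163), at 53.0 and 41.6.

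The other glial genes with a gained region were Pdgfra, a growth factor receptor (chr5:75155909-75156357, 19.3 and 12.7), Ncam1, a neural adhesion molecule (chr9:49744359-49744796, 34.8 and 38.4), Col1a1, a collagen chain (chr11:94936847-94937478, 34.5 and 24.6), and Ncan, a matrix proteoglycan (chr8:70129379-70130550, 19.3 and 15.3). The Ncan region was 8516 bp from that gene and 256 bp from Rfxank. None of these regions reached the upper part of both lists. In normoxia, none of the 6 genes' gained regions had a peak in a monoculture list, and all but that of Ncam1 had a peak in at least 1 co-culture list.

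The AP-1 and immediate early factors, some of which are switched on within minutes of many signals, had a gained region at 5 of 18 genes (27.8%) and a lost one at 1 (5.56%). Of protein-coding genes with any region, 15.5% had a gained and 7.46% a lost one. The start of Fos (chr12:85473516-85474180) stood at 69.8 and 57.7, and a region 8616 bp from the gene (chr12:85485890-85486325) at 67.8 and 69.7. The start of Mafk, a small Maf partner of AP-1 family proteins (chr5:139791135-139791634), stood at 52.8 and 65.9, and that of the related Mafg (chr11:120633366-120633939) at 34.7 and 64.7. A region 6432 bp from Atf3 was lost, at 16.3 and 5.31 in monoculture. Another 5 genes had a higher region: Fosl2, Jund, Maff, Egr3 and Ier3. A lower region was found at 1 gene, 1577 bp from Batf, an AP-1 factor of immune cells, at 47.2 and 30.9 in co-culture and 74.6 and 68.4 in monoculture. The glial list, the AP-1 list and the next ones had the same libraries behind them, so their gains are not independent of each other.

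Genes of the unfolded protein and integrated stress response lower the load of misfolded protein and adjust translation. They had a gained region at 5 of 20 (25%) and a lost one at 2 (10%). The shares of protein-coding genes with any region were 15.5% and 7.46%. The start of Chac1, a target of the stress factor ATF4 that degrades glutathione (chr2:119350724-119351348), stood at 73.8 and 77.6. A region 6669 bp from Atf4 (chr15:80264214-80264686), which lies at the start of Rps19bp1, stood at 67.0 and 79.3, and one 9913 bp from Calr, a chaperone of the endoplasmic reticulum, at the start of Farsa (chr8:84856844-84857461), at 41.1 and 59.6. The lost regions were inside Edem1 (chr6:108824975-108825420, 48.3 and 61.5 in monoculture) and 5711 bp from Sel1l (chr12:91799606-91800332, 33.9 and 19.6), both genes of the degradation of misfolded proteins. Higher regions were found at Ddit3, Pdia4, Ern1 and Calr, and lower ones at Atf6 and Edem1.

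All 30 hypoxia-inducible factor targets had a region, 27 of them one with a peak in all 4 lists. Over all protein-coding genes 68.7% had a region and 49.4% one with a peak in all 4 lists. A gained region was found at 5 of the 30 targets (16.7%) and a lost one at 3 (10%). Of protein-coding genes with any region, 15.5% had a gained and 7.46% a lost one. The gained ones with the highest rank were 2387 bp from Aldoa, a glycolytic enzyme, at the start of Ppp4c (chr7:126792221-126792847, 26.3 and 52.8), 7216 bp from Car9, a carbonic anhydrase, inside Arhgef39 (chr4:43499272-43499810, 35.3 and 21.8), and inside Pfkfb3, a regulator of glycolysis (chr2:11535467-11535792, 18.5 and 56.02). The lost ones were inside Bnip3, a factor in the removal of mitochondria (chr7:138906999-138907416, 50.3 and 45.0 in monoculture), 5711 bp from Ankrd37 (chr8:45990531-45991197, 64.7 and 30.5) and 5548 bp from Pdk1, which limits the use of pyruvate in mitochondria (chr2:71867211-71867667, 0.261 and 9.98).

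The start-site regions of 5 of these targets were higher in co-culture, and they are given here because of their values. The start of P4ha1, a collagen prolyl hydroxylase, stood at 75.9 and 75.6 in co-culture and at 13.6 and 18.6 in monoculture. That of Higd1a, a mitochondrial protein, stood at 92.9 and 95.02 against 51.2 and 52.8, and that of the stress gene Ddit4 at 84.2 and 79.5 against 38.8 and 39.6. Aldoa (88.5 and 86.3 against 42.4 and 51.0) and Slc2a1, the glucose transporter (88.3 and 88.2 against 56.6 and 63.9), completed the group. The count, 5 of 30 genes (16.7%), stands beside 7.91% of all protein-coding genes and 11.5% of those with any region. Of all 5889 shared gene-end regions, 14.4% were higher. Lower regions were found at 2 of the 30 (6.67%), against 2.03% of all protein-coding genes and 2.96% of those with any region. The one inside Pfkfb3 stood at 38.3 and 19.5 in co-culture and at 71.1 and 72.04 in monoculture, and the one inside Mxi1, a repressor of MYC targets, at 39.6 and 35.3 against 73.2 and 79.6.

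The interferon and antigen presentation list had a gained region at 1 of 27 genes, 5273 bp from Stat2 and 42 bp from Il23a (chr10:128298126-128298537, 28.2 and 6.10), and no lost one. Higher regions were found at genes that include Irf1, Irf9 and Ifnar2, and lower ones at none. The start of Irf9, a subunit of the interferon-stimulated factor, stood at 74.0 and 74.9 in co-culture and at 31.6 and 53.3 in monoculture. Of the 24 NF-kappaB and inflammatory genes, 3 had a gained region. These lay at the start of Rela, the p65 subunit (chr19:5637107-5637808, 50 and 47.1), inside Tnfaip3, a brake on the pathway (chr10:19008943-19009698, 36.1 and 56.5), and 6993 bp from Ptgs2, the inducible prostaglandin synthase (chr1:150115227-150115805, 28.02 and 26.4). Nfkb1, the p50 subunit, had 2 lost regions, the stronger at chr3:135596979-135597394 (50.8 and 66.7 in monoculture), and a lower one. The genes of the 2 main subunits thus had changed regions in opposite directions.

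Tumor-associated macrophage genes had a gained region at 5 of 25 and a lost one at 2. The gained regions with the highest rank were beside Thbs1, a matrix glycoprotein (chr2:118110996-118111824, 50.9 and 47.5), at the start of Cd274, which encodes the checkpoint ligand PD-L1 (chr19:29367126-29367729, 40.8 and 40.3), and 4337 bp from Lgals1, a galectin, at the start of Nol12 (chr15:78934802-78935311, 39.1 and 55.3). Thbs1 also had a lost region (14.2 and 12.9 in monoculture), and the other lost one lay 4849 bp from Spp1, or osteopontin (8.43 and 4.86). Higher regions were found at Gpnmb, Lgals1, Mif and near Stat6. The start of Gpnmb stood at 38.5 and 59.8 in co-culture and at 16.2 and 11.6 in monoculture.

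Adhesion, matrix and protease genes had a gained region at 6 of 24 (25%), a lost one at 4 (16.7%), a higher one at 3 (12.5%) and a lower one at 4 (16.7%). Of protein-coding genes with any region, 15.5% had a gained, 7.46% a lost, 11.5% a higher and 2.96% a lower one. The gained ones with the highest rank were inside Timp2, an inhibitor of matrix proteases (chr11:118327152-118327927, 89.3 and 74.7), inside Cd44, the hyaluronan receptor (chr2:102873084-102873692, 74.2 and 38.6), and 7043 bp from Adam8, a membrane protease (chr7:139971392-139971889, 49.2 and 33.1). The lost ones were led by Plaur, the urokinase receptor (chr7:24457493-24457995, 48.3 and 32.9 in monoculture), Ctsl, a lysosomal protease (17.6 and 23.2), and Mmp2, a gelatinase (9.27 and 31.8). Both called regions of the integrin gene Itgb1 were lower. The one 4736 bp from the gene (chr8:128679822-128680918) stood at 33.8 and 10.8 in co-culture and at 86.5 and 89.0 in monoculture, and the start site at 55.9 and 43.4 against 79.7 and 80.5.

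Cell cycle genes had a gained region at 5 of 24 (20.8%) and a lost one at 2 (8.33%). The shares of protein-coding genes with any region were 15.5% and 7.46%. Besides Top2a, the genes with a gained region were led by Ccnd3, a D-type cyclin, with one 6038 bp from its start (chr17:47511089-47511550, 84.1 and 87.0), and by E2f2 (chr4:136185338-136185909, 38.4 and 37.0). Ccnd3 also had a lost region, at chr17:47507968-47508364 (60.1 and 65.9 in monoculture), so peaks on the same side of the start site went opposite ways. The other lost region lay 7502 bp from Rb1, the retinoblastoma gene (chr14:73333453-73334333, 63.4 and 51.4). Higher regions were found at 3 genes of this list, Ccnd3, Cdkn1a and Rb1, and lower ones at none. The one inside Rb1, at the start of Lpar6, stood at 57.0 and 56.3 in co-culture and at 21.7 and 33.1 in monoculture. Of all list genes, 5 had both a gained and a lost region: Acvr1, Ccnd3, Pparg, Tgfbr2 and Thbs1.

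TGF-beta signaling genes had a gained region at 5 of 23 (21.7%) and a lost one at 3 (13.0%). The shares of protein-coding genes with any region were 15.5% and 7.46%. The gained ones with the highest rank lay 9910 bp from Tgfbr2, a receptor, and 1268 bp from Gadl1 (chr9:116077444-116077785, 56.0 and 39.9), inside Smad3, a signal transducer (chr9:63706221-63706685, 42.8 and 29.8), and inside Acvr1, a receptor of the same family (chr2:58505545-58506151, 53.0 and 25.6). The lost ones were inside Tgfbr2 (chr9:116098896-116099456, 57.1 and 57.6 in monoculture), beside Acvr1 (10.7 and 10.6) and inside Smad1 (12.3 and 10.2). Higher regions were found at the starts of Smad3, Smad6, Smurf2 and Id3, and no gene of this list had a lower one. Smad6 and Smurf2 are known to restrain the pathway.

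Lipid and cholesterol genes had a gained region at 5 of 24 (20.8%) and a lost one at 3 (12.5%). The shares of protein-coding genes with any region were 15.5% and 7.46%. The gained ones were led by an end of Scd1, a desaturase of fatty acids (chr19:44407706-44408467, 86.6 and 49.5), the start of Ppard, a nuclear receptor for lipids (chr17:28232486-28232867, 42.2 and 77.2), and a region 8480 bp from Fasn, the fatty acid synthase, inside Ccdc57 (chr11:120833646-120834169, 37.9 and 22.8). The lost ones lay 6050 bp from Plin2, a coat protein of lipid droplets (chr4:86620306-86620860, 66.0 and 60.9 in monoculture), inside Pparg (14.2 and 13.3) and inside Soat1, which esterifies cholesterol (12.3 and 17.7). Higher regions were found at genes that include Srebf1, Fasn and Dgat2, all genes of lipid synthesis, and at Fasn the start site stood at 88.2 and 90.4 against 61.9 and 57.1. Lower regions were found at none of the 24.

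Gained regions were unevenly spread over chromosomes. On chromosome 11, 251 of 2328 regions (10.8%) were gained and on chromosome 10, 172 of 1642 (10.5%), against 3.73% on X and 3.85% on chromosome 12. Lost regions were most frequent on chromosome 12 (5.54%) and X (5.43%) and least on chromosome 10 (2.92%). Away from gene ends the gained share was 9.66% on chromosome 11 and 10.3% on chromosome 10, against 5.69% over all chromosomes, so the excess of gained regions was also found away from gene ends. At shared regions 17.3% on chromosome 11, 12.7% on chromosome 10 and 12.5% on chromosome 15 were higher, against 2.36% on chromosome 12. At gene ends the shares higher on chromosomes 11, 10 and 15 were 27.96%, 22.8% and 23.5%, against 14.4% over all chromosomes. Away from gene ends they were 7.81%, 3.27% and 5.97%, against 2.82%, so on chromosome 10 the excess of higher regions lay mainly at gene ends.

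**Figure D5:**
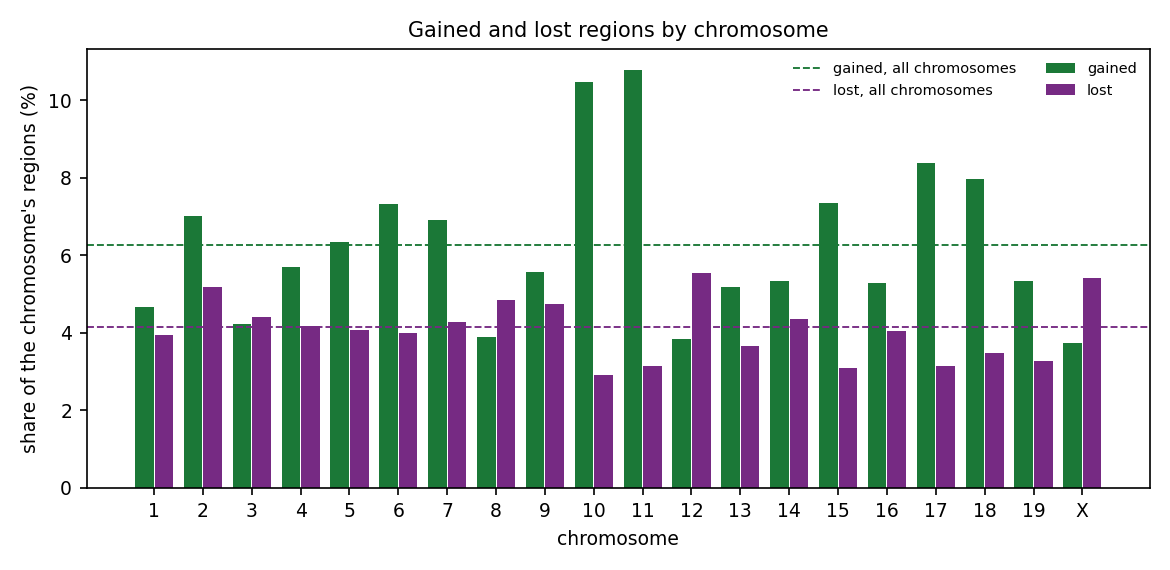
Share (%) of the regions of each chromosome that were gained (green) or lost (purple), with dashed lines at the values over all chromosomes. Chromosomes 10 and 11 have the highest gained shares, 10.5% and 10.8%, and chromosome 12 the highest lost share, 5.54%.

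The share of all peaks that fell on these chromosomes moved with culture at both oxygen levels. Chromosome 10 held 4.41% and 4.25% of the peaks in hypoxic co-culture and 3.66% and 3.85% in hypoxic monoculture, and in normoxia 4.21% and 4.17% against 2.96% and 2.80%. Chromosome 11 held 6.62% and 6.88% against 5.65% and 5.57%, and in normoxia 6.34% and 6.13% against 5.94% and 5.59%. Chromosome 12 held 4.55% and 4.58% against 5.18% and 5.57%, and in normoxia 4.95% and 5.35% against 5.78% and 6.29%. For each of these chromosomes the cultures did not overlap. Of the 20 chromosomes, 4 (6, 10, 11 and 15) had a larger share in co-culture at both oxygen levels and 2 (8 and 12) a smaller one, without overlap. Another 2 (2 and 16) had a smaller share in co-culture in hypoxia and a larger one in normoxia, also without overlap. The chromosomes were singled out after their values were seen, and the glial marker counts given above also moved with culture at both oxygen levels, a part that was not tested.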

How the data were processed

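The authors deposited 1 list of ATAC-seq peaks per library, so replicates were not pooled. The submitters' processing notes name Trimmomatic 0.36, HISAT2 2.1.0, Picard, SAMtools, deepTools, MACS2 2.1.1.2 and mm10, with no role or order; settings, filters and any shift for the Tn5 insertion are not given in the sources used here. Each deposited list gives for every peak a score, a fold over background (a ratio), a −log10 p and a −log10 q, and the summit as an offset in bp from the start. The deposited score repeats the −log10 q, multiplied by 10 and cut to a whole number, and was not used further. The lowest deposited −log10 q was just above 2 in each list. Folds, −log10 p and −log10 q are the authors' and served to order and select the peaks of each list, and to work out fragments and background coverage.

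Peaks on chromosome Y (5 to 11 per list) were left out. Regions were merged over the 4 hypoxic lists and annotated with RefSeq genes of GRCm38.p6, 21631 of them protein-coding. Fragments at a summit were solved from the deposited fold and −log10 p under a Poisson model, for peaks with a −log10 p up to 250. Between 99.8% and 99.9% of the peaks could be solved, with a tolerance of 0.001 on the −log10 p. Start sites and motif matches come from the RefSeq promoter table (21045 windows of 300 bp). The scripts used pandas 2.3.3, numpy 2.4.6, matplotlib 3.10.9 and scipy 1.17.1 under Python 3.11.15, and were tested on simulated data.

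Named regions are the 10 gained and 10 lost with the highest minimum percentile, 5 shared ones in each direction by gap, and 3 gained and 3 lost with the same pattern in normoxia. Named genes are the 5 with most gained and most lost regions, up to 3 per list and direction, and every marker gene with a gained or lost region. Promoters printed are those whose upstream 250 bases overlap the region, lie in no annotated gene, hold no unknown base and lie outside chromosome 18. Higher and lower list genes were named after their values were seen. Some regions and genes are not reported here. The comparison, members and lists were chosen with earlier results of these data known. Alternatives were lists of equal number, a stricter −log10 q, equal background coverage, summit windows of 250 bp on each side, peaks that cover 50% of a region, no peaks wider than 10 kb, each library left out, a replicate block, other gaps and other distances.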

Additional observations from a re-analysis of the deposited data

Results flagged for a closer look

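Among the 1578 regions lost with co-culture in hypoxia, 111 (7.03%) went the opposite way in normoxia, called in both co-culture lists and neither monoculture list of normoxia. They were flagged because every library moved one way in hypoxia and the other way in normoxia, and the difference between the oxygen levels was not tested. Over all regions 12.6% had that normoxic pattern. Of the 111, 13 lay at a gene end. The highest ranked were the Tlcd4 region, one inside Slc44a5, a choline transporter-like gene (chr3:154177707-154178126, 82.0 and 85.1 in hypoxic monoculture, 75.2 and 69.2 in normoxic co-culture), and one 23037 bp from Gm36613 (chr6:148577692-148578241, 82.0 and 73.1, and 54.9 and 58.0). None of the 2392 gained regions had the opposite pattern, called in both monoculture lists and neither co-culture list of normoxia. Only 0.236% of all regions had it, and the part of the short normoxic monoculture lists in this was not tested.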

How the results depend on the processing

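Of the 10 named gained and 10 named lost regions, those of Top2a and Ighv1-47 were not called when a list's peaks had to cover 50% of a region, and the other 18 were called under all 10 alternatives. Of the 10 shared regions with the widest gaps, 9 lost their call under at least 1 of these, 8 of them with lists of equal number, and only Kcnn1 kept it under all 10. Camk2b and Fpr1 lost it under 3, and no region reversed. Of all gained regions, 1520 (63.5%) and of lost regions 1068 (67.7%) were called under all 6 alternatives that keep every library. Lists of equal number gave a share gained of 53.3% of changed regions (60.3% as deposited), with 36.04% of gained regions at a gene end, 37.02% with the same normoxic pattern, 0.841% of lost regions with theirs, and a peak difference of 0 by construction. A −log10 q of at least 5 gave 35.95%, 35.9% and 0.833% for the last 3 shares. Coverage of 50% gave 55.5% gained, with 35.1% and 8.94% of gained and lost regions at a gene end. Summit windows gave 7.58% of lost regions there. Within 2.5 kb of a gene end the shares were 37.1% and 12.9%, and at start sites alone 28.2% and 3.23%. The number lower was 1039 when re-ranked among shared regions. Without a gap 4403 regions were higher and 4149 lower, and with 30 points 462 and 211. Of list genes, 69 had a gained or lost region, 134 within 50 kb and 19 with one at 1 kb from a gene end.

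Leaving out each library in turn gave 3392 to 7050 gained, 2052 to 4943 lost, 1522 to 2200 higher and 926 to 2456 lower regions (1522 and 2456 without co-culture replicate 1), since fewer libraries loosen the rule. The share gained ran from 40.7% without monoculture replicate 1 to 77.5% without co-culture replicate 2, and was 44.9% without co-culture replicate 1 and 49.3% without monoculture replicate 2, so more gains than losses is not a stable result. The gene-end share ran from 19.8% to 35.9% of gained and from 6.74% to 8.63% of lost regions, and the normoxic pattern from 16.1% to 32.6% and from 0.694% to 1.32%. The peak difference turned to −3724 without co-culture replicate 1 and to −697 without monoculture replicate 1, and reached 4298. The difference in gene-end peaks ran from 1.18 to 8.38 points.

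Replicate numbers were not shown to pair the libraries: the correlation of same-numbered libraries' deviations at shared regions was 0.00169. With the replicate number as a block, 1370 regions were higher and 799 lower. The peak difference was 287 (5282 and −4708 in the pairs, exact p = 1) and the gene-end difference 4.78 points (0.241 and 9.32, exact permutation p = 0.5). A p of 0.5 is the smallest that this blocked test can give, so it cannot decide whether the cultures differ.

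The lists hold no reads below the calling threshold, so an absent peak is one that was not detectable at this depth, and gained regions had a median of 24 and 19 fragments at the summit against 44 and 35 at shared regions.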

Other observations

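The pattern of a single list over the 38123 regions differed between libraries. Regions that 3 lists had and 1 lacked numbered 3153 for co-culture replicate 2, 440 for co-culture replicate 1, 1157 for monoculture replicate 1 and 988 for monoculture replicate 2. Regions of 1 list alone numbered 4578 in co-culture replicate 1, 1342 in co-culture replicate 2, 1986 in monoculture replicate 1 and 3295 in monoculture replicate 2. The 3153 regions absent from co-culture replicate 2 outnumbered the 2392 gained ones. This library had the lowest background coverage of the 4 hypoxic ones, 1.17 fragments per position.

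Peaks wider than 10 kb were few but covered much of the sequence in each list. There were 79 and 91 in co-culture and 85 and 79 in monoculture, and they made up 40.2% and 58.1% of the covered bp in co-culture and 39.04% and 37.1% in monoculture. With them left out, 2388 of the 2392 gained and 1572 of the 1578 lost regions were still called.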
